A study of Mus musculus with 7 samples.

Results

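H3K9me3, the trimethylated form of lysine 9 on histone H3, was profiled by chromatin immunoprecipitation and sequencing (ChIP-seq) in the hippocampus of mice given environmental enrichment and of mice left in their home cage. The comparison asks whether a past period of enriched housing leaves a lasting difference in this mark. It covered 3 of the 7 libraries of the series: 1 home cage library and 2 libraries from the enriched condition, called enriched replicates 1 and 2 here. All 3 came from wild-type C57BL/6 mice aged 3 months. The enriched mice spent 24 h in a larger cage with a running wheel and toys and then 1 week back in the home cage, and the control mice stayed in the home cage. The hippocampus was taken after perfusion with fixative, and its chromatin was sonicated, size selected and precipitated with 2 ug of a Diagenode antibody. Whole hippocampus holds neurons, glia and vessel cells together, so a change in the mark within cells and a change in the mix of cells cannot be told apart. The labels do not say whether the enriched libraries came from separate animals or from pools, and a single control library leaves the spread between home cage mice unmeasured. With 3 possible arrangements of the libraries, the smallest two-sided exact permutation p is 0.333.

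H3K9me3 is the histone mark of constitutive heterochromatin. It is written by methyltransferases such as SUV39H1, SUV39H2 and SETDB1, read by HP1 proteins, and removed by the KDM4 demethylases. In brain and other tissues it covers satellite repeats and endogenous retroviruses and also lies over zinc finger gene clusters, olfactory and vomeronasal receptor clusters, imprinted loci and the clustered protocadherins, while the start sites of active genes, which mostly lie in CpG-rich sequence, carry little of it.

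The genome was divided into fixed windows of 50 kb and 10 kb on chromosomes 1 to 19 (mm10). The signal of each window was divided by the median window of its library, which gives a scaled signal of 1 in a typical window. Windows with a mean scaled signal of at least 0.25 were kept, 47359 of 49205 at 50 kb and 235647 of 246067 at 10 kb. The coverage corresponded to 6188700 fragments in the home cage library, 13017400 in enriched replicate 1 and 8060240 in enriched replicate 2 (rounded). The estimated fragment lengths also differed, at 285, 207 and 238 bases. A typical 50 kb window held 119.5 fragments in the home cage library against 249 and 159 in the enriched libraries, and a typical 10 kb window held 23.3, 48.7 and 31.8. The label of the antibody fitted the levels of known H3K9me3 loci: 50 kb windows over the clustered protocadherins had median scaled signals of 3.37, 3.69 and 2.55 in the home cage library and enriched replicates 1 and 2, and those over the housekeeping genes had 0.768, 0.824 and 0.906. ChIP signal does not check the tissue label, since it is not a measure of expression. Every ratio below sets an enriched library against the same home cage library, so any peculiarity of that library enters both ratios.

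The clearest difference shared by both enriched libraries lay at CpG-rich gene starts, where both enriched libraries had more H3K9me3 than the home cage library. The promoter sequences below, 250 bases upstream of the start on the gene's own strand (RefSeq, GRCm38.p6, 5′ to 3′), show the kind of sequence concerned, with each CG dinucleotide in capitals. They belong to genes at the upper or lower end of their gene lists in the window comparison further on. Among the genes at these ends they were picked to show both kinds of sequence, not a link between CG number and list end. Other genes at these ends went the other way. At the lower end Dusp1 and Egr4 held 28 CG dinucleotides each, and at the upper end Olfr536 held 0. Eef1a1 encodes the translation elongation factor that brings aminoacyl-tRNA to the ribosome, Suv39h2 an H3K9 methyltransferase, Adgrl1 the adhesion receptor latrophilin 1 and Zfp296 a zinc finger protein, whereas Olfr1402 and Olfr1031 are olfactory receptor genes.
Eef1a1: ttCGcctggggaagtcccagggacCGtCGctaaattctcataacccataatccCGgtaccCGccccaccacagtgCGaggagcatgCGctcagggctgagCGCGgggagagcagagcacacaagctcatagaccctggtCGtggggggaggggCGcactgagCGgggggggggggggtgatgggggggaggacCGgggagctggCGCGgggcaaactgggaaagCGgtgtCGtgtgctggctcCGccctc
Suv39h2: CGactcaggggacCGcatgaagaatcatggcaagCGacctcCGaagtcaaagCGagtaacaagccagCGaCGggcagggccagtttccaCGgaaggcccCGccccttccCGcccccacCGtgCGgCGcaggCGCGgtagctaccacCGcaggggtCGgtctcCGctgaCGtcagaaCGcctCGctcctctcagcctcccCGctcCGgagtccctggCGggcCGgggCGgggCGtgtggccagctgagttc
Adgrl1: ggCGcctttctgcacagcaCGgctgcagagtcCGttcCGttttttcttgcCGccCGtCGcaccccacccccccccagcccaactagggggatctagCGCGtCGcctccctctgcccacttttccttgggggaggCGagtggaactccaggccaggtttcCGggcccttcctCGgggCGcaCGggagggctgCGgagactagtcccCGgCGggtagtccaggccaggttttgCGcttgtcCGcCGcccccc
Zfp296: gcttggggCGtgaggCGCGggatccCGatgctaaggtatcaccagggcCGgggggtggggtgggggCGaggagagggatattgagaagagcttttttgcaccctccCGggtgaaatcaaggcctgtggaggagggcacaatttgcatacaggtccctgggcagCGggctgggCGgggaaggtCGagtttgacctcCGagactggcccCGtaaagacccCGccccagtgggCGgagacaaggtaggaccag
Olfr1402: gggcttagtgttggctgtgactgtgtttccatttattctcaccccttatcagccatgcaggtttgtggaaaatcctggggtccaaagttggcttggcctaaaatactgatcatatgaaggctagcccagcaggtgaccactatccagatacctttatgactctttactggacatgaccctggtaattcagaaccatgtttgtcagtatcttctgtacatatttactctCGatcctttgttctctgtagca
Olfr1031: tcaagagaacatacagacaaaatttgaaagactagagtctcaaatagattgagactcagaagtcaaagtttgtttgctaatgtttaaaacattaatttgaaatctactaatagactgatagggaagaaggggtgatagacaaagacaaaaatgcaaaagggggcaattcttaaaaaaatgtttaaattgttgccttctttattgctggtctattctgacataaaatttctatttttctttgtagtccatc
The Eef1a1 sequence (chr9:78481725-78481974, minus strand) held 18 CG dinucleotides, a number reached by 22.2% of all 25748 promoter sequences of this length. The Suv39h2 sequence (chr2:3474987-3475236, minus strand) held 27, which 8.44% of promoters reached. The Adgrl1 sequence (chr8:83899848-83900097, plus strand) held 21 and the Zfp296 sequence (chr7:19577037-19577286, plus strand) held 14, reached by 16.6% and 30.2% of promoters. Against these, the Olfr1402 sequence (chr3:97411180-97411429, minus strand) held 1 and the Olfr1031 sequence (chr2:85991569-85991818, plus strand) held 0. The median promoter held 6 CG dinucleotides, which read the same on both strands, and 92.0% held at least 1. None of these 6 stretches overlaps another gene model of the RefSeq table.

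A single promoter cannot be resolved at this depth. The 1 kb bin at the Eef1a1 start held 0 fragments in the home cage library, 5 in enriched replicate 1 and 1 in enriched replicate 2, the Suv39h2 bin held 0, 4 and 1, and the Adgrl1 bin held 0, 2 and 3. At Zfp296 the counts were 4, 20 and 5, at Olfr1402 they were 5, 7 and 4, and at Olfr1031 they were 3, 5 and 3. The comparison was therefore made on fragments pooled over many starts, in 24274 distinct bins of 1 kb. The starts were divided into 3 classes of nearly equal size by the GC content of the 300 bases around the start.

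**Figure D1:**
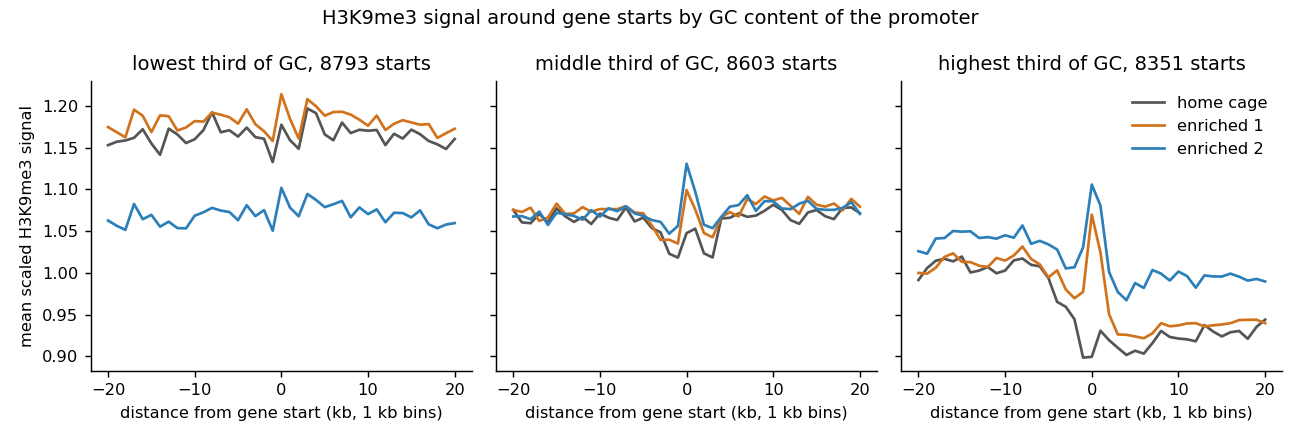
Mean H3K9me3 scaled signal (y axis, library median window = 1) in 1 kb bins by distance from the gene start in kb (x axis, along the gene's strand), averaged over starts, 1 line per library and 1 panel per class of gene starts by GC content. At GC-rich starts the home cage line steps down to 0.898 just before the start and stays low, at 0.899 in the start bin, while the enriched lines peak in the start bin at 1.07 and 1.11.

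In the GC-rich class (8351 starts) the start bins together held 16010, 39770 and 26754 fragments in the home cage library and enriched replicates 1 and 2. Their pooled scaled signal was 0.919 (exact 95% interval 0.905 to 0.934) in the home cage library, 1.09 (1.08 to 1.10) in enriched replicate 1 and 1.12 (1.11 to 1.14) in enriched replicate 2. The home cage value lay below both enriched values and the intervals did not meet. The start bins were 1.19 (1.16 to 1.21) and 1.22 (1.20 to 1.25) times the home cage level. These intervals cover counting error only, not differences between mice or immunoprecipitations.

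The difference was largest at the start, and in enriched replicate 1 it was mostly local to it. Averaged over GC-rich starts, the home cage signal was 0.944, 0.898 and 0.899 in the bins 2 kb before, 1 kb before and at the start. It was 0.931, 0.919 and 0.910 at 1, 2 and 3 kb after the start. The home cage signal thus stepped down at the start, with a shallow low there. The enriched libraries stepped down as well but had a local maximum in the start bin. In the bins 2 kb before, 1 kb before, at and 3 kb after the start, enriched replicate 1 had 0.970, 0.977, 1.07 and 0.926. Enriched replicate 2 had 1.01, 1.03, 1.11 and 0.977. At 5 and 10 kb after the start the home cage signal was 0.907 and 0.921, and enriched replicate 1 had 0.924 and 0.937. Enriched replicate 2 had 0.988 and 1.00 there, so it also stayed higher farther into the gene. Between 16 and 20 kb from the same starts the scaled signal was 0.977, 0.985 and 1.02 in the 3 libraries, so the start bin stood at 0.941 of its own flank in the home cage library and at 1.11 and 1.10 of it in the enriched libraries. Set against their own flank, the enriched libraries were thus 1.17 times the home cage library. The value was 1.17 without enriched replicate 1 and 1.18 without enriched replicate 2. In the class of middle GC content the start bins were 1.05 and 1.08 times the home cage level. In the GC-poor class they were 1.03 and 0.937 times that level, and the enriched libraries fell on opposite sides of the home cage.

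Each chromosome gave the same order at the GC-rich starts. Both enriched libraries lay above the home cage library on 18 of 18 autosomes with promoter sequences, with ratios from 1.10 to 1.29 in enriched replicate 1 and from 1.10 to 1.37 in enriched replicate 2. At the GC-poor starts both lay above it on 2 chromosomes and both below it on 7. Chromosomes of one library share its preparation and its depth, so they are not replicates of the condition, and no p is given for them.

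The ratio rose with GC content and, at similar GC content, with the number of CG dinucleotides. Over 10 classes of nearly equal size it went from 1.05 in the lowest class through 1.00 in the fourth to 1.23 in the highest in enriched replicate 1, and from 0.874 to 1.29 in enriched replicate 2. Among starts of 55 to 65% GC, those with few CG dinucleotides (median 7 in 300 bases) had ratios of 1.04 and 1.10, those with an intermediate number (median 17) had 1.15 and 1.17, and those with many (median 24) had 1.25 and 1.33. The home cage level itself fell across these groups from 1.16 to 1.00 and 0.687, so the ratio was highest where the home cage signal was lowest. In the group with many CG dinucleotides the start bin lay below its flank in every library, at 0.710 of it in the home cage library and at 0.884 and 0.908 in the enriched libraries. The home cage library has the longest fragments, the lowest depth and a single replicate. The part of fragment length, of base composition during amplification and of antibody background in this pattern was not tested.

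**Figure D2:**
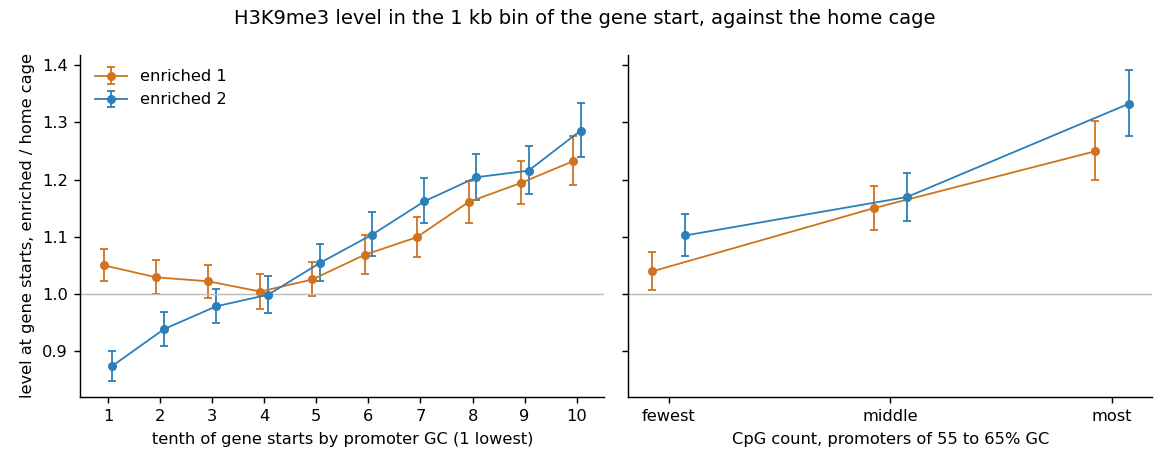
Ratio of pooled start-bin scaled signal, enriched over home cage (y axis), across 10 classes of gene starts by GC content (left) and, among starts of 55 to 65% GC, across 3 classes by number of CG dinucleotides (right), 1 series per enriched replicate with exact 95% counting intervals. On the left the ratio ends at 1.23 and 1.29 in the class richest in GC, and on the right it climbs to 1.25 and 1.33.

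The same bins were read for the gene lists. At the starts of genes of the H3K9 methylation machinery, the writers, readers and erasers of the mark, the bins held 37, 124 and 73 fragments, with scaled signals of 0.646 in the home cage library and of 1.03 and 0.925 in the enriched libraries. The ratio was 1.59 (1.10 to 2.38) in enriched replicate 1 and 1.43 (0.96 to 2.21) in enriched replicate 2, so the second interval includes 1. The median GC content of these starts was 61.3%, and both intervals include the ratios of all GC-rich starts, 1.19 and 1.22. Starts of ribosomal protein genes held 73, 196 and 131 fragments and had ratios of 1.27 (0.975 to 1.70) and 1.31 (0.979 to 1.77), both intervals including 1. At the starts of voltage-gated channel genes, which set neuronal excitability, 39, 114 and 104 fragments gave ratios of 1.39 (0.962 to 2.06), an interval that includes 1, and 1.95 (1.34 to 2.90). In the other synaptic lists ratios were 1.01 and 1.11 for glutamate receptors, 1.07 and 1.05 for the GABA synapse and 0.938 and 1.28 for synaptic adhesion. Their starts held only 50, 32 and 56 home cage fragments. All intervals include 1 and also the 1.19 and 1.22 of all GC-rich starts. These counts therefore cannot tell the lists from GC-rich starts or from no difference. Zinc finger genes, many of which encode repressors that recruit H3K9 methylation through KAP1, held 646, 1596 and 1026 fragments with ratios of 1.18 (1.08 to 1.29) and 1.16 (1.05 to 1.29). Both were above 1 but no higher than the 1.19 and 1.22 of all GC-rich starts. The median GC content of zinc finger starts was 54.3%, however, which lies in the middle class, with ratios of 1.05 and 1.08. Their interval lay above that ratio in enriched replicate 1 and included it in enriched replicate 2.

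Starts of immediate early genes, which are transcribed within minutes of neuronal activity, held 56, 108 and 63 fragments and had ratios of 0.930 (0.661 to 1.30) and 0.826 (0.566 to 1.20), both intervals including 1. Olfactory receptor starts, with 3293, 7423 and 3730 fragments, had ratios of 1.08 and 0.829. Starts of imprinted genes had scaled signals of 2.59, 2.58 and 2.28, and both counting intervals of their ratios include 1.

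At 50 kb, 8 windows were at least 1.5-fold higher in both enriched libraries than in the home cage library (0.0169% of the windows tested) and 1 was at least 1.5-fold lower in both (0.00211%). Of the 8, 7 overlap annotated protein-coding genes of varied function and the other holds 4 predicted genes. A window over Frem1 (chr4:82950001-83000000), which encodes an extracellular matrix protein of the Fraser complex, held 63, 244 and 139 fragments in the home cage library and enriched replicates 1 and 2. Its scaled signal was 0.527, 0.984 and 0.874, below the genome's typical level in the home cage library and near it in both enriched libraries. The ratios were 1.87 (1.40 to 2.49) and 1.66 (1.22 to 2.26).

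The window over Vinac1 and Ttl (chr2:129050001-129100000), the latter encoding tubulin tyrosine ligase, held 82, 291 and 177 fragments, with scaled signals of 0.689, 1.17 and 1.11 and ratios of 1.70 and 1.62. It was the only one of the 8 in which both enriched libraries rose above the typical window. The window with Gpx4 and Sbno2 (chr10:80050001-80100000) held 54, 183 and 138 fragments at scaled signals of 0.454, 0.738 and 0.868. Gpx4 encodes the glutathione peroxidase that reduces lipid peroxides. Its ratios were 1.62 and 1.91.

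The window with Rnf139, Tatdn1, Ndufb9 and Mtss1 (chr15:58900001-58950000) had the lowest home cage level of the 8. It held 45, 154 and 125 fragments at scaled signals of 0.377, 0.620 and 0.788, and Ndufb9 encodes a subunit of respiratory complex I. Windows in Ubr4 (chr4:139450001-139500000), encoding a ubiquitin ligase, and in Larp1 (chr11:58000001-58050000), encoding an RNA-binding protein that controls translation of ribosomal protein mRNAs, had 57, 191 and 125 and 55, 187 and 127 fragments. Their home cage signals were 0.475 and 0.465, and their enriched signals lay between 0.753 and 0.799. The window in Plcb1 (chr2:135300001-135350000), whose phospholipase C acts downstream of Gq-coupled receptors, had 0.529 against 0.845 and 0.866. The remaining window (chr12:86800001-86850000), with predicted genes only, had 0.582 against 0.972 and 0.931.

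In all 8 windows the enriched replicates lay closer to each other than to the home cage library, which the rule for choosing them makes likely, and home cage counts stayed between 45 and 82 fragments. The threshold of 1.5-fold is 0.585 on the log2 scale with a pseudocount of 0.1. The smaller of the log2 ratios was 0.587 in the window just inside it and 0.567 in the window just outside, so the list has no natural edge. At 1.25-fold, 534 windows were higher (1.13%) and 132 lower (0.279%). The count of 8 depends on the processing: it was 2 after centring by gene number, 3 with scaling on the weakest 75% of windows and 0 with a pseudocount of 0.5. Enriched replicate 2 alone had 168 higher and 279 lower windows, and enriched replicate 1 alone had 19 and 4.

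limma, weighted by the counting error of each window, called 0 of the 47359 windows at an adjusted p under 0.05. An unadjusted p under 0.05 was reached by 554 windows, 421 of them higher and 133 lower in the enriched libraries. That is a smaller share of the 47359 windows than the 0.05 that evenly spread p-values would give. The other tool used, voom, also called 0. Of its 1582 windows at an unadjusted p under 0.05, again a smaller share than 0.05, 322 were higher and 1260 lower. This was the reverse of the split in the weighted fit. The SD of the log2 ratio over windows was 0.155 for enriched replicate 1 and 0.220 for enriched replicate 2 against the home cage, and 0.211 between the enriched replicates. Counting error alone gives 0.161, 0.175 and 0.146 at the median window. The pseudocount of 0.1 lowers the observed SDs but is not in these counting errors, so they can be compared only roughly. At 50 kb the SD of enriched replicate 1 against the home cage library was thus close to counting error. It was smaller than the SD between the enriched replicates.

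**Figure D3:**
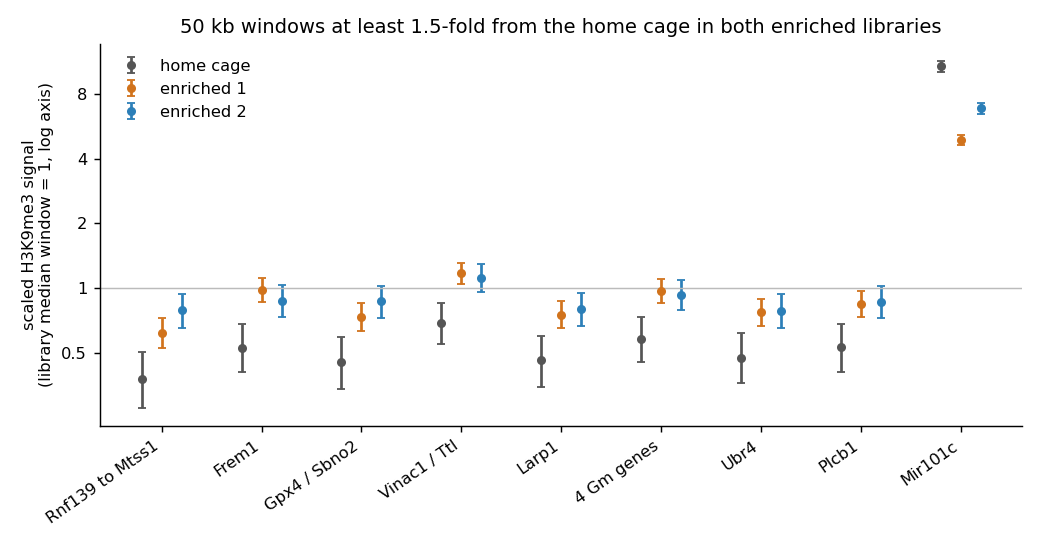
H3K9me3 scaled signal (y axis, log scale, library median window = 1) of the 9 windows of 50 kb at least 1.5-fold from the home cage library in both enriched libraries (x axis, by the genes they overlap), 1 point per library with its exact 95% counting interval. In the 8 higher windows the home cage points lie between 0.377 and 0.689, below both enriched points, and in the Mir101c window the home cage point lies highest, at 10.7.

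At 10 kb the fold rule gave 6255 higher windows (2.65%) and 2477 lower (1.05%), mostly isolated ones. Of the higher windows 96.8% had fewer than 20 home cage fragments, against 31.7% of all windows tested, and their median was 11. Of the lower windows 10.1% had so few, and their median was 32. Low home cage counts thus choose the higher windows and high ones the lower windows. A gene overlapped 65.9% of the higher windows and 39.0% of the lower, against 46.9% of all. At 1.25-fold, 22598 windows were higher (9.59%) and 18000 lower (7.64%). Enriched replicate 1 alone gave 12720 and 8695 at 1.5-fold, and enriched replicate 2 alone gave 16358 and 18311. At 1.5-fold, both counting intervals excluded 1 in 1190 higher and 1061 lower windows.

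limma called 4 of the 10 kb windows (0.0017%), all higher in the enriched libraries and 0 lower. At an unadjusted p under 0.05 were 7844 windows, 5104 higher and 2740 lower, a smaller share of the windows tested than 0.05. In Rabgap1l (chr1:160430001-160440000), which encodes a GTPase-activating protein for Rab GTPases, the window held 3 fragments in the home cage library, 43 in enriched replicate 1 and 46 in enriched replicate 2. The scaled signals were 0.143, 0.888 and 1.47, nearly empty in the home cage library and close to or above typical in the others. The ratios were 6.19 (2.19 to 34.5) and 10.3 (3.61 to 56.4), with a limma log2 difference of 2.29 (SE 0.38, adjusted p = 0.000375).

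In Nup54 (chr5:92420001-92430000), which encodes a nucleoporin of the central channel of the nuclear pore, the window held 2, 47 and 29 fragments at scaled signals of 0.0865, 0.971 and 0.919. The limma log2 difference was 2.49 (SE 0.42, adjusted p = 0.000375), and the counting intervals of the ratios, 11.2 (2.94 to 95.3) and 10.6 (2.69 to 91.8), are wide because they rest on 2 home cage fragments. In Sh3pxd2a (chr19:47330001-47340000), which encodes the podosome scaffold TKS5, the window held 5, 52 and 40 fragments, and limma gave a log2 difference of 1.99 (SE 0.37, adjusted p = 0.00698). The remaining window (chr4:35160001-35170000) overlaps no gene of the table. It held 8, 57 and 51 fragments, with a log2 difference of 1.68 (SE 0.33, adjusted p = 0.0254).

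In these 4 windows the home cage fragments fell in 2 to 6 of the 10 bins of 1 kb, whereas both enriched libraries had signal in all 10. The neighbouring windows differed less. Beside the Nup54 window the home cage signal was 0.822 before and 0.422 after, against 0.712 and 0.702 in enriched replicate 1 and 0.634 and 0.570 in enriched replicate 2. On both sides of the window without a gene all libraries lay between 0.875 and 1.14.

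These calls depend on the processing. limma called 0 windows with a pseudocount of 0.5 (lowest adjusted p 0.136), 0 with the window grid shifted (0.0664) and 0 with voom (0.229). The 9481 windows at an unadjusted voom p under 0.05 were mostly lower, 5723 against 3758 higher. They too were a smaller share of the windows tested than 0.05. As first planned, without weights for depth and with a free variance trend, limma called 45. The self-test on simulated tracks made calls among unchanged windows also with the weights, so the 4 windows are described here as candidates on 1 home cage library.

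Other windows with the highest shared ratios lay in Mettl15, with 4, 40 and 30 fragments, Dennd5a, with 6, 49 and 36, and Fto, with 5, 56 and 30 (limma adjusted p = 0.147). In Ntrk2, which encodes the BDNF receptor TrkB, a window held 5, 42 and 29 fragments at scaled signals of 0.217, 0.867 and 0.909, and in Nf1, which encodes the Ras inhibitor neurofibromin, one held 4, 35 and 24. Smim3 had 6, 46 and 33. None of them passed limma's test, and all rest on 6 or fewer home cage fragments.

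The windows with the lowest shared ratios were in part in genes too. In Camk4, which encodes a calcium-dependent kinase that acts on CREB, a window held 29, 20 and 17 fragments, with scaled signals of 1.26 in the home cage library and of 0.415 and 0.527 in the enriched libraries. In Adcy10, which encodes soluble adenylyl cyclase, the counts were 34, 29 and 19, and in Adamtsl3 they were 36, 31 and 21. The home cage library had more fragments in these windows than either deeper library. None passed limma's test.

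Runs of 3 adjacent 10 kb windows, each past 1.5-fold, marked 6 places in the higher direction. In Lrpprc (chr17:84750001-84780000), encoding a stabiliser of mitochondrial mRNAs, the run held 23, 113 and 68 fragments and had the lowest home cage signal, 0.333 against 0.777 and 0.719. In Sema5a (chr15:32450001-32480000), an axon guidance gene, it held 30, 130 and 82, and in Exoc2 (chr13:30870001-30900000), encoding an exocyst subunit, 27, 97 and 84. Runs also lay in the Vinac1 and Ttl window and in the Gpx4 and Sbno2 window described above, with ratios of 1.98 (1.46 to 2.75) and 1.77 (1.26 to 2.50) in the first and 1.99 (1.29 to 3.14) and 2.34 (1.48 to 3.70) in the second.

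The single 50 kb window that was lower in both enriched libraries lay at the proximal end of chromosome 9 (chr9:3000001-3050000), beside the assembly gap of the centromere, and its only gene is Mir101c. The table of mature miRNAs places mmu-miR-101c there (chr9:3038680-3038698, minus strand). Its mature sequence is shown with the seed, bases 2 to 8, in capitals, because it is the sole gene product annotated in the window.
mmu-miR-101c: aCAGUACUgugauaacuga
The window held 1278 fragments in the home cage library, 1211 in enriched replicate 1 and 1091 in enriched replicate 2. Although the libraries differ 2.10-fold and 1.30-fold in size from the home cage, the counts were nearly the same, so the scaled signal fell from 10.7 to 4.88 and 6.86. The ratios were 0.454 (0.420 to 0.492) and 0.639 (0.589 to 0.693), and limma gave a log2 difference of -0.93 (SE 0.52, unadjusted p = 0.0750).

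In enriched replicate 1, counts that hardly rose with depth were found at a few other dense sites and not at most. Of 52 bins of 1 kb with at least 100 fragments in every library, 10 held less than 1.25 times the home cage fragments in enriched replicate 1, all on chromosomes 2, 9 and 14, and 42 held at least that. One such bin on chromosome 2 (chr2:98662001-98663000) held 266, 254 and 245 fragments, and one on chromosome 14 (chr14:19416001-19417000) held 380, 399 and 369. A dense window over Sfi1 (chr11:3150001-3200000) went otherwise in enriched replicate 1, with 5233, 10824 and 5345 fragments. Its scaled signals of 44.0, 43.6 and 33.6 were close in the home cage library and enriched replicate 1. Enriched replicate 2 rose little at dense sites in general. In 1 kb bins with a mean of 100 to 200 and of at least 200 fragments, its median fragment ratios to the home cage were 1.03 and 1.05. The whole library had 1.30. In enriched replicate 1 the median ratios were 1.71 and 1.88, against 2.10 for the library. The highest coverage of any base was 320, 348 and 328 fragments. With the signal of each base capped, the chromosome 9 window was no longer past 1.5-fold. How duplicate reads were treated is not given in the sources used here, and its part in the counts at these sites was not tested.

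At 50 kb, windows with more protein-coding genes had higher ratios. From 50 kb windows with 0 genes to those with 6 or more, the median home cage signal fell from 1.09 to 0.774, and the median log2 ratio went from 0.001 to 0.067 in enriched replicate 1 and from -0.085 to 0.164 in enriched replicate 2. Among windows of similar mean signal, 0.7 to 0.9, it still rose, from 0.024 to 0.064 and from -0.039 to 0.193. The share of windows 1.25-fold higher in both enriched libraries was 0.379% with 0 genes (75 of 19809) and 3.18% with 6 or more (5 of 157). The slope was steeper in enriched replicate 2 than in enriched replicate 1. At 10 kb the medians rose to 0.062 and 0.171 in windows with 3 genes but not throughout. The 14 windows with 5 genes had 0.106 and -0.292, and the 52 with 6 or more had 0.029 and -0.128.

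By mean signal, the lowest 10% of windows had median log2 ratios of 0.061 and 0.137. In the strongest 1% they were 0.119 and -0.384, on opposite sides of the home cage library. Of these 474 windows 3 were 1.25-fold lower in both enriched libraries (0.633%) and 0 were higher. Over all windows the shares were 0.279% lower and 1.13% higher, and 3 windows are too few to set against them.

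**Figure D4:**
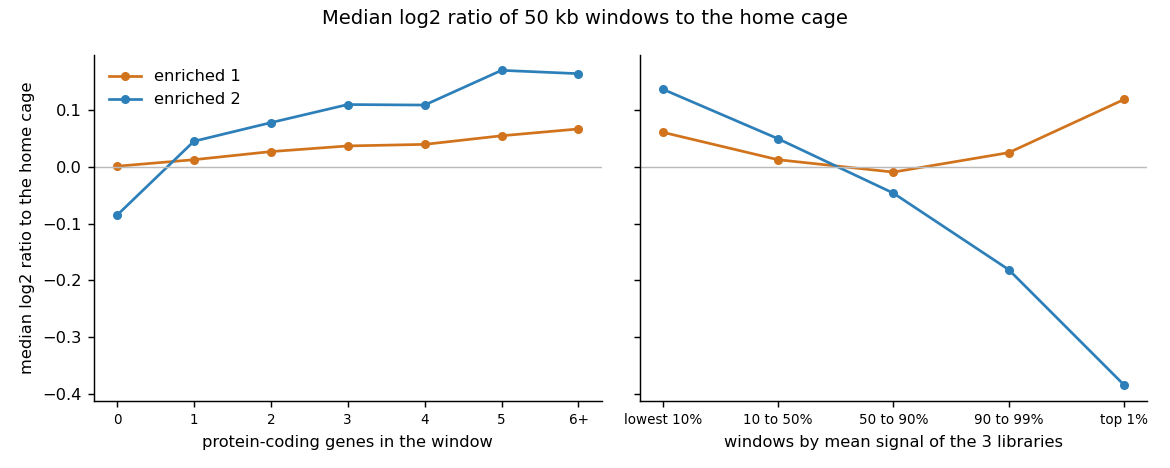
Median log2 ratio of scaled signal to the home cage library (y axis, pseudocount 0.1) in 50 kb windows by number of protein-coding genes (left) and by mean signal of the 3 libraries (right), 1 series per enriched replicate. With gene number both series end higher than they start, at 0.067 and 0.164; in the strongest 1% of windows they part, at 0.119 and -0.384.

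In 500 kb windows the same tendency had names. The window chr10:80000001-80500000, with 28 genes, held 1031, 2482 and 1736 fragments, and its scaled signal was 0.859 in the home cage library and 0.990 and 1.09 in the enriched libraries. It contains the Gpx4 window. A window around Nr2f2 (chr7:70000001-70500000), which encodes the nuclear receptor COUP-TFII, was among the lowest, with 1747, 3142 and 2053 fragments. At this size the SD of the log2 ratio was 0.059 and 0.136 against the home cage, with 0.147 between the enriched replicates, and counting error gives 0.051, 0.055 and 0.046. Enriched replicate 2 was thus the library that stood apart, by more than counting error.

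Gene lists were read over all 50 kb windows of each gene's span. limma called 0 windows in each of the 21 lists, and the median log2 ratio over all windows was -0.004. Housekeeping genes had the highest list median, 0.15, with scaled signals of 0.768, 0.824 and 0.906, and 3 of their 32 windows were 1.25-fold higher in both enriched libraries (9.38%). The window of Eef1a1 held 60, 206 and 126 fragments, at ratios of 1.65 and 1.58. The H3K9 methylation machinery followed, with a median of 0.10 and scaled signals of 0.874, 0.918 and 0.951, but 0 of its 71 windows passed 1.25-fold. At its upper end stood the window of Suv39h2, with 72, 189 and 128 fragments and ratios of 1.26 (0.954 to 1.67) and 1.33 (0.989 to 1.80), both intervals including 1. Kdm4b, which encodes an H3K9 demethylase, had 247, 583 and 420 fragments and ratios of 1.13 and 1.28.

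Ribosomal protein genes had a median of 0.08, with 2 of 73 windows 1.25-fold higher (2.74%), among them Rpl4 with 64, 181 and 144 fragments. Splicing regulators had 0.06, with 4 of 150 higher (2.67%). Of the immediate early genes 2 of 35 windows were higher (5.71%) at a median of 0.06. The medians of enriched replicates 1 and 2 were 0.030 and 0.179 for ribosomal protein genes, 3.5e-05 and 0.128 for splicing regulators and 0.007 and 0.128 for immediate early genes. These 3 list medians thus came mainly from enriched replicate 2. The share over all windows was 1.13%, and over windows with 3, 4 and 5 genes it was 2.30%, 3.89% and 4.07%. After centring by number of genes, the medians were 0.08 for housekeeping genes, 0.06 for the methylation machinery and 0.02 for ribosomal protein genes. The Nr4a1 window, of an orphan nuclear receptor gene induced by activity, had 68, 194 and 144 fragments with ratios of 1.36 and 1.59, and Per1, a clock gene, had 146, 372 and 288 with 1.23 and 1.49. Dusp1, which encodes a phosphatase of MAP kinases, lay at the other end of this list with 0.828 and 0.860.

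Synaptic lists lay near the genome's median. Synaptic adhesion genes had a median of 0.04 and 5 of 258 windows higher, among which Adgrl1 held 56, 165 and 142 fragments and had ratios of 1.42 (1.04 to 1.95) and 1.90 (1.38 to 2.63). Glutamate receptors had 0.02 with 3 of 207, genes of the GABA synapse 0.02 with 1 of 76, and voltage-gated channels 0.05 with 1 of 178. These shares run from 0.562% to 1.94%, around the 1.13% of all windows.

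Among the lists known for H3K9me3, the protocadherins and the receptor families had medians below 0 and the zinc finger genes one just above it. The clustered protocadherins had a median log2 ratio of -0.06 with 0 of 16 windows past 1.25-fold, and the medians of the enriched replicates lay on opposite sides of the home cage, at 0.11 and -0.26. Olfactory receptors, with scaled signals of 1.46, 1.47 and 1.18, had -0.11, with 1 higher and 3 lower of 574 windows. The window of Olfr1402 was one of the lower ones, with 185, 260 and 172 fragments and ratios of 0.673 (0.556 to 0.818) and 0.695 (0.562 to 0.861), and that of Olfr1031 had 193, 301 and 165. Vomeronasal receptors had a median of -0.13, at 1.62, 1.78 and 1.28. Zinc finger genes had 0.02, with 9 higher (1.77%) and 1 lower of 508 windows, and replicate medians of 0.07 and 0.01, with Zfp296 at 69, 191 and 158 fragments. Imprinted genes had -0.02, and Magel2, an imprinted gene, had 238, 499 and 217 fragments with ratios of 1.01 and 0.684.

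Markers of the cell types of hippocampus were read in the same way. The median log2 ratio was 0.06 for excitatory neurons, -0.04 for inhibitory neurons, 0.06 for astrocytes, 0.07 for oligodendrocytes, -0.001 for microglia and 0.01 for endothelial cells. Of these windows 1 of 11 for astrocytes and 1 of 9 for microglia were 1.25-fold higher in both enriched libraries. These are single windows, beside 1.13% of all windows. Replicate medians lay on opposite sides of the home cage for excitatory neurons (-0.020 and 0.042), inhibitory neurons (0.039 and -0.110), astrocytes (0.034 and -0.015) and microglia (-0.047 and 0.029). Both lay above it for oligodendrocytes and endothelial cells. With so few windows, a list median need not lie between its replicate medians. A part of the cell mix in the ratios was not tested.

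Nrxn2 and Nrxn3 encode neurexins, presynaptic adhesion molecules. Nrxn2 (chr19:6418756-6533217) spans 3 windows, which held 320, 752 and 546 fragments at scaled signals of 0.896, 1.01 and 1.14. The ratios were 1.13 (0.987 to 1.29) and 1.28 (1.11 to 1.47), so the first interval includes 1. Nrxn3, over 33 windows, held 3301, 6789 and 4627 fragments, and its ratios were 0.986 (0.946 to 1.03) and 1.05 (1.00 to 1.10), close to the home cage level in both enriched libraries.

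Whole chromosomes differed little. The median scaled signal of the autosomes lay between 0.962 and 1.07 in all libraries. On the X chromosome it was 0.499, 0.484 and 0.466, and on the Y chromosome 0.017, 0.012 and 0.006, at most a few fragments per window.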

How the data were processed

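Coverage tracks of 3 H3K9me3 ChIP-seq libraries were used. The authors deposited coverage signal per genome interval on mm10; per the submitters' processing notes the tools of the series include CASAVA 1.7, BWA 0.7.12, MACS2 and TopHat2, whose roles are not given. Every value was a whole multiple of 1 step (tolerance 0.01 steps), so signal was read as fragments per base, and fragment counts are summed coverage over the most common length of isolated stretches. No input library was used here. The members and gene lists were chosen with earlier results of these data known.

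Scaled signal was compared as log2(scaled signal + 0.1) with limma 3.58.1 (R 4.3.3) across all windows, with Benjamini-Hochberg adjustment. The fit planned had no weights. It made false calls on simulated tracks, so weights by inverse counting variance and a variance trend held above its 99th percentile were added after seeing the data; some unchanged simulated windows were still called. Exact Poisson and binomial intervals (95%) cover counting error only. Python 3.11.15, numpy 2.4.6, pandas 2.3.3 and scipy 1.17.1 did the rest. Gene spans, promoters and miRNAs came from RefSeq tables of GRCm38.p6. Genes named are those overlapping windows at least 1.5-fold from the home cage library in both enriched libraries, with both counting intervals excluding 1 and a mean of at least 20 fragments, ranked by the smaller ratio (up to 10 per direction), windows called by limma, the longest runs, the 2 genes at each end of every gene list, Nrxn2 and Nrxn3; some results this rule gives are not reported here. No genome was used here, so GC centring, a filter on unread bases and window sequences were not made; centring by gene number replaced the first, and the windows over each gene's span replaced the window of its start.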

Additional observations from a re-analysis of the deposited data

How the results depend on the processing

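Counts below are windows, with the reported count first. The depth weights and held variance trend behind the reported limma calls were chosen after seeing the data, as were centring by gene number and 1.25-fold. The pooled comparison at gene starts and its classes by GC content and CG number were not in the plan. limma at 10 kb called 4 windows, but 0 with a pseudocount of 0.5, 0 on the shifted grid, 0 with voom, 23 without depth weights and 45 in the fit as planned, without weights and with a free trend. At 50 kb, the 8 higher windows became 0 at 2-fold, 534 at 1.25-fold, 0 with a pseudocount of 0.5, 5 with scaling by library total, 3 with scaling on the weakest 75% of windows (against 1 lower), 5 on the shifted grid and 2 after centring by gene number. Leaving out 1 enriched replicate gave 19 to 168. The 1 lower window became 0 at 2-fold, 132 at 1.25-fold, 2 without the minimum signal, 0 with capped signal, and 4 to 279 without 1 enriched replicate. At 10 kb, the 6255 higher windows became 578 at 2-fold, 22598 at 1.25-fold and 938 with a pseudocount of 0.5, and 12720 to 16358 without 1 enriched replicate, while the 2477 lower became 30, 18000 and 307, and 8695 to 18311. The sign of a gene list's median changed in 5 of 21 lists after centring by gene number, in 5 with scaling on the weakest windows, in 1 with scaling by total, and in 2 and 10 without enriched replicates 1 and 2. None of the named windows changed sign in the alternatives run. The home cage library cannot be left out, limma was not run without an enriched replicate, and GC centring and the filter on unread bases were not run. No paired analysis was possible because the home cage condition has 1 library. Depth limits single 10 kb windows, whose home cage count is typically 23.3 fragments.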
